A study of Homo sapiens and Mus musculus with 81 samples.

Results

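The Apob-Mm2 siRNA was compared with mock transfection in HUH7, a human liver cancer cell line. The members are the 4 HUH7 arrays labelled Apob-Mm2 and the 4 labelled mock, 8 of the 81 arrays of the series, chosen from the labels by line, treatment and time. The Apob-Mm2 cells received 10 nM duplex in Lipofectamine RNAiMAX, a lipid transfection reagent, and were collected at 6, 12, 24 or 48 h. The mock cells were collected at the same times, and their labels give no siRNA. The study profiled messenger RNA on one-colour oligonucleotide arrays in HUH7 (32 arrays), in the human liver cancer line PLC/PRF/5 (24 arrays) and in mouse cells and liver. Beside mock, both human lines received 7 siRNAs: Apob-Mm2, Apob-Mm1, an siRNA named RAD18, and APOB-Hs1 to APOB-Hs4. PLC/PRF/5 cells were collected at 6, 12 and 48 h. The series asked which transcripts siRNAs regulate beyond their intended target.

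An siRNA is a short RNA duplex. Its guide strand is loaded into an Argonaute protein, and the complex cleaves a transcript that pairs with the whole guide. A guide can also act as a microRNA does: a short stretch near its 5′ end, the seed, pairs with sites in many messenger RNAs, and TNRC6 proteins bound to Argonaute recruit factors that shorten the poly(A) tail and destabilise those messages. The name Apob-Mm2 carries the mouse symbol of the gene for apolipoprotein B, the structural protein of very low density and low density lipoproteins. None of the files, labels or reference tables read for these results spells out the duplex, so no site was searched for.

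There was 1 array for each treatment and time, and the 4 times stand in for replicates. Values below are RMA (robust multi-array average) intensities, or differences of their log2, Apob-Mm2 minus mock of the same time. A gene counted as changed at a limma Benjamini-Hochberg adjusted p under 0.05 over the 17836 genes tested, and its standard error (SE) rests on the spread of all 32 HUH7 arrays around a model of treatment and time. Such an SE also holds any change of the effect with time. The median intensity of an array over all probe sets lay between 32.13 and 33.59 with Apob-Mm2 and between 32.86 and 33.65 with mock, and the residuals of an array from the model had an SD of 0.0891 to 0.136 with Apob-Mm2 and 0.0828 to 0.0964 with mock (log2 units). Across genes, the 8 arrays correlated with each other at r of 0.9938 to 0.9981. Alpha-fetoprotein (AFP) read 18090 to 19150 over the 8 arrays and all 12 measured hepatocyte markers lay above the median gene of each array. That median is over the 17836 genes tested and is higher than the one over all probe sets. On every array 6 of 7 endothelial and 6 of 7 leukocyte markers lay under it. Of the 8 fibroblast and stellate cell markers 5 lay under it on every array, as did 2 of the 4 bile duct markers. The fibroblast marker LUM (2166 to 3122) and the bile duct keratin KRT19 (1850 to 2788 with Apob-Mm2, 1420 to 2305 with mock) were well above it. So was the bile duct marker SOX9 (1117 to 1499 with Apob-Mm2, 1236 to 1373 with mock). Summed over the 8 fibroblast and stellate cell markers the intensity was 2603 to 3573 with Apob-Mm2 and 2815 to 3362 with mock, and over the 4 bile duct markers 3135 to 3932 and 2820 to 3570. No marker of any of the 5 lists passed the test. In RNA of whole cultures, fewer cells of a type and less RNA per cell cannot be told apart.

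Human APOB had intensities of 11100, 4623, 3524 and 3443 at 6, 12, 24 and 48 h with Apob-Mm2, against 10150, 8631, 8143 and 8219 with mock. It stood at 109% of mock at 6 h, 53.6% at 12 h, 43.3% at 24 h and 41.9% at 48 h, so the groups overlapped only through the 6 h array. The mean log2 difference was -0.81 ± 0.261 (SE), with an adjusted p of 0.14 that misses the threshold. Without the arrays of 6 h it was -1.12 with an adjusted p of 0.000281, and in the other leave-one-time-out fits the adjusted p lay at 0.339 or above. The DNA repair ubiquitin ligase gene RAD18, the target named for another siRNA of the set, differed by -0.01 ± 0.113.

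Over all genes, 230 of 17836 (1.29%) changed with Apob-Mm2. Of these, 137 were lower (0.768% of genes) and 93 were higher (0.521%), with median log2 differences of -0.40 and 0.36, while the median over all genes was -0.004. The lower side reached further: 5 genes were lower by more than 1 log2 unit and 41 by more than 0.5, against 0 and 14 on the higher side. At an unadjusted p under 0.05 there were 2295 genes. Of the 137 lower genes, 115 were below mock at all 4 times, and of the 93 higher ones, 91 were above it at all 4. The calls rest on the mean of these same differences, which favours a shared sign. The share over all genes was not counted. In 65 of the lower genes every Apob-Mm2 intensity lay below every mock intensity, as it did in 2.01% of all genes, and in 62 of the higher genes every one lay above, as in 2.81% of all genes. Most changed genes were among the brighter ones: 128 of the 137 and 81 of the 93 had a mean HUH7 level above that of the median gene, which parts all genes evenly. Of the 28 genes named below for this comparison, 7 lay under it.

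The count depends on the arrays of each time and on the shared spread. It was 318 without all arrays of 6 h, 104 without 12 h, 14 (all lower) without 24 h and 19 without 48 h. Leaving out single arrays gave 67 and 56 without the Apob-Mm2 arrays of 24 and 48 h, 107, 76 and 84 without the mock arrays of 12, 24 and 48 h, and 439 without the Apob-Mm2 array of 6 h. A fit on the 8 arrays alone called 2 genes.

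**Figure D1:**
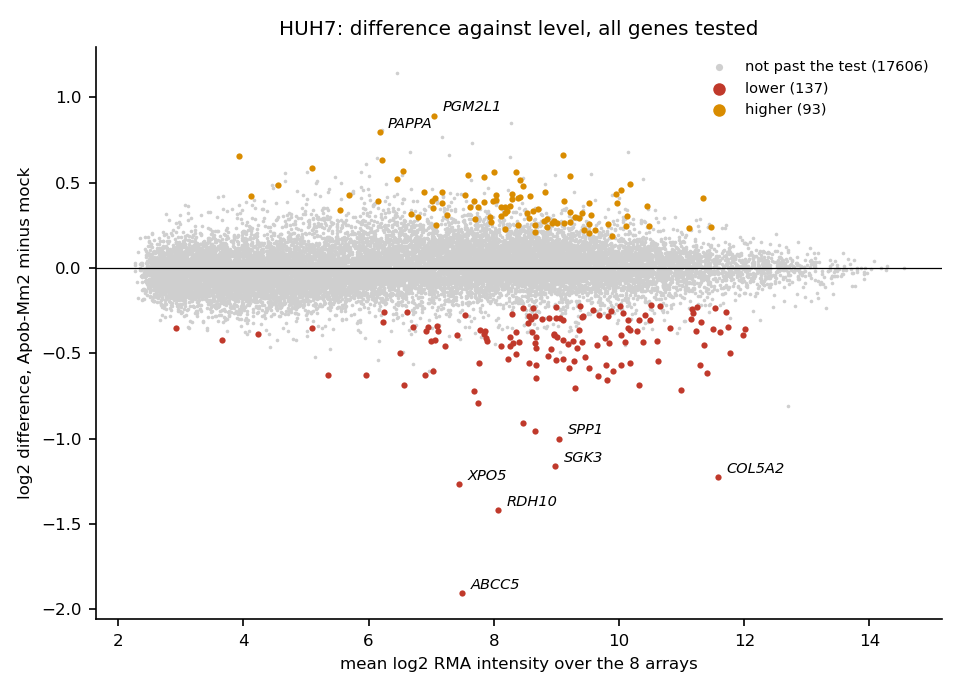
Each point is 1 of the 17836 genes: the x axis gives its mean log2 RMA intensity over the 8 arrays and the y axis the log2 difference, Apob-Mm2 minus mock, averaged over 4 times. The 137 genes past the test on the lower side reach -1.90 (ABCC5), while the 93 on the higher side reach 0.89 (PGM2L1).

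The gene with the largest fall was ABCC5, which encodes an ATP-driven efflux pump for cyclic nucleotides and other organic anions. Its intensity was 132.5, 93.25, 66.4 and 92.5 at 6, 12, 24 and 48 h with Apob-Mm2, against 363, 366, 324 and 346 with mock. The 4 Apob-Mm2 arrays lay far below all 4 mock arrays, and the level was already at 36.5% of mock at 6 h before reaching 20.5% at 24 h. The mean difference was -1.90 ± 0.102 (adjusted p = 2.44e-12). ABCC5 had 3 probe sets, and the other 2 gave -0.42 and -0.07, so the size rests on the brightest of them.

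RDH10, XPO5 and COL5A2 were nearer to mock at 6 h and far below it from 12 h on. RDH10 encodes the retinol dehydrogenase that makes retinaldehyde, the step before retinoic acid. It read 286, 155, 132 and 125 with Apob-Mm2, against 385, 410, 439 and 538 with mock, a fall to 74.4% of mock at 6 h and to 23.2% at 48 h (mean -1.42 ± 0.169, adjusted p = 1.76e-05). Its 3 probe sets ran from -1.42 to -1.39. XPO5 encodes exportin 5, which carries microRNA precursors out of the nucleus. Its levels were 201.5, 103, 86.7 and 87.8 with Apob-Mm2, against 251, 278, 278 and 270.5 with mock, so that 80.3% of the mock level at 6 h was followed by 37.0%, 31.2% and 32.5% (mean -1.26 ± 0.147, adjusted p = 1.32e-05). COL5A2 encodes a chain of type V collagen, a fibril-forming collagen of the matrix. It read 4268, 1982, 1364 and 1380 with Apob-Mm2, against 4813, 4699, 4593 and 4540 with mock, and its mean difference was -1.22 ± 0.171 (adjusted p = 0.00018), with -0.49 in its other probe set. In all 3 genes the groups did not overlap, and the mock arrays stayed within a narrow band apart from RDH10, whose mock level was highest at 48 h.

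**Figure D2:**
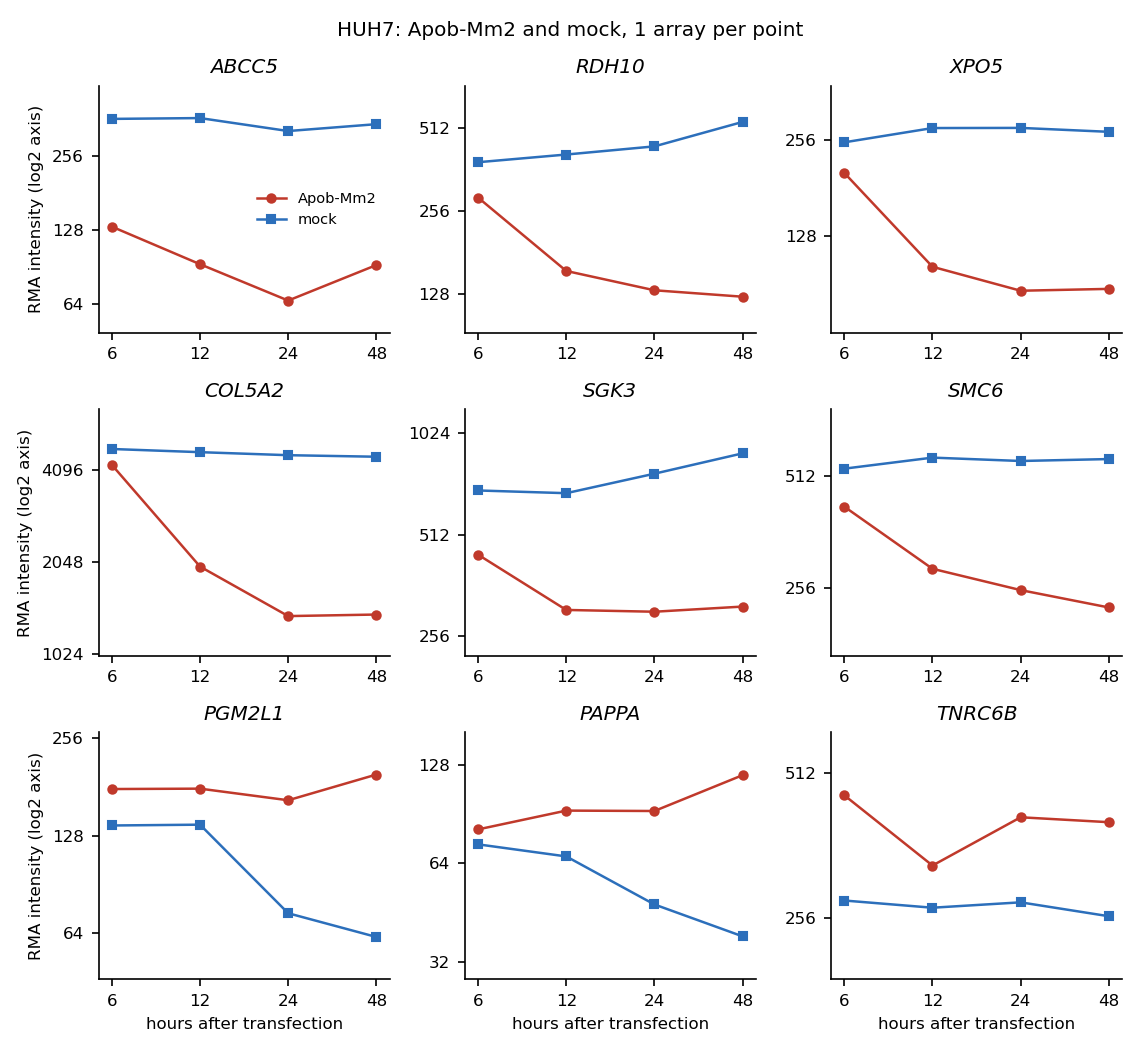
RMA intensity on a log2 axis against hours after transfection for 9 genes in HUH7, with Apob-Mm2 in red circles and mock in blue squares and 1 array per point. ABCC5 is apart from mock at 6 h, RDH10, XPO5, COL5A2 and SMC6 separate from 12 h on, and in PGM2L1 and PAPPA the mock level falls while the Apob-Mm2 level does not.

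Next in size came a kinase, a secreted protein and a chromosome protein. SGK3, which encodes an endosomal kinase downstream of phosphoinositide 3-kinase, read 446, 307, 303 and 314 with Apob-Mm2, against 691, 678, 774 and 889 with mock (-1.16 ± 0.123, adjusted p = 4.46e-06). SPP1, the gene of the secreted phosphoprotein osteopontin, read 600, 486, 330 and 204 with Apob-Mm2, against 626, 695, 887 and 810 with mock (-0.999 ± 0.230, adjusted p = 0.0252). Its Apob-Mm2 levels were lower at each later time while its mock levels were highest at 24 h, so the difference at 6 h was only -0.06 and that at 48 h was -1.99. SMC6, a subunit of a complex that keeps chromosomes intact during replication and repair, read 424, 288, 253 and 227 with Apob-Mm2, against 537, 575, 563 and 569.5 with mock (-0.95 ± 0.0998, adjusted p = 4.46e-06). AMMECR1, at 367, 267, 219 and 208.5 with Apob-Mm2, against 472, 498, 523 and 453 with mock, had a difference of -0.91 ± 0.147 (adjusted p = 0.00119).

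BMPR2, SMAD5 and SKIL also fell. BMPR2, a type II receptor for bone morphogenetic proteins (BMPs), read 263, 155, 124 and 140 with Apob-Mm2, against 305, 305, 259 and 264 with mock, overlapping by the 6 h array alone (-0.79 ± 0.148, adjusted p = 0.00541). Its other 2 probe sets gave -0.53 and -0.44, and the average of its probe sets did not pass (-0.58, adjusted p = 0.0543). SMAD5, which carries the BMP signal, read 1513, 1024, 873.5 and 772.5 with Apob-Mm2, against 1868, 1672, 1526 and 1467 with mock, again overlapping through 6 h alone (-0.69 ± 0.0771, adjusted p = 7.83e-06). SKIL, a repressor that binds SMADs, was dim at 40.5, 38.8, 22.7 and 32.1 with Apob-Mm2, against 49.7, 59.3, 51.6 and 42.6 with mock (-0.63 ± 0.149, adjusted p = 0.0325).

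The other named lower genes fell by 0.61 to 0.72 log2 units. KLF2, a zinc finger transcription factor, read 218, 114, 167 and 155.5 with Apob-Mm2, against 350.5, 238, 242.5 and 235 with mock. SWT1, whose yeast relative is a nuclear RNA endonuclease, read 66.3, 86.7, 73.8 and 74.0, against 115, 135, 121 and 111 with mock, and its difference ran only from -0.80 to -0.59 over the times. ANAPC16, a subunit of the ubiquitin ligase that drives cells through mitosis, stood at 77.7%, 67.9%, 54.8% and 56.5% of mock. MGAT4A, a Golgi enzyme that branches N-glycans, stood at 99.2% of mock at 6 h and 50.6% at 48 h. QDPR, which regenerates the tetrahydrobiopterin cofactor, read 2754, 2248, 1766 and 2085 with Apob-Mm2, against 3201, 3236, 3359 and 3583 with mock. RBM12B, an RNA-binding protein gene, and the vanin pseudogene VNN3P differed by -0.62 each. Of these 18 named lower genes, 13 had every Apob-Mm2 array below every mock array, as did 2.01% of all genes. The 18 were picked by these same differences, which favours such a separation. Their median difference was -0.33 at 6 h, -0.80 at 12 h, -1.11 at 24 h and -0.98 at 48 h.

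**Figure D3:**
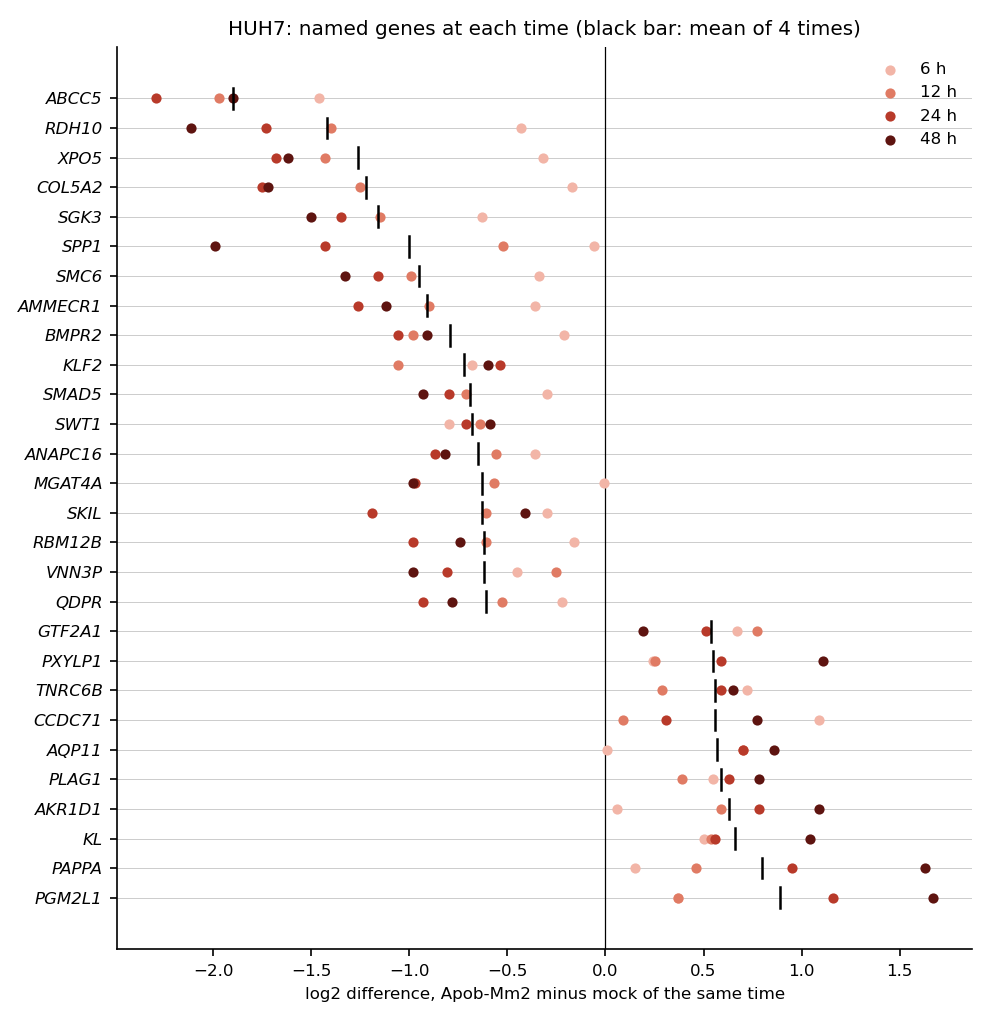
Log2 difference, Apob-Mm2 minus mock of the same time, for the 18 named lower and 10 named higher genes in HUH7, with 1 point per time (paler to darker red, 6 to 48 h) and a black bar at the mean of 4 times. The 6 h point is the one nearest to 0 for most lower genes, with ABCC5, KLF2 and SWT1 already at -1.46, -0.68 and -0.80.

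Higher genes moved less, and in several the mock level declined over the culture while the Apob-Mm2 level did not. PGM2L1, which makes glucose 1,6-bisphosphate, read 178, 179, 165 and 198 with Apob-Mm2, against 138, 138, 73.6 and 62.2 with mock (0.89 ± 0.157, adjusted p = 0.00331). PAPPA, a secreted protease that cleaves insulin-like growth factor binding proteins, read 81.3, 92.7, 92.5 and 119 with Apob-Mm2, against 73.2, 67.2, 48.0 and 38.4 with mock (0.80 ± 0.191, adjusted p = 0.0333). AKR1D1, the beta-reductase of bile acid synthesis, read 81.4, 86.6, 90.9 and 112 with Apob-Mm2, against 77.9, 57.7, 52.9 and 52.4 with mock (0.63 ± 0.152, adjusted p = 0.0345). In 7 of the 10 named higher genes the mock array of 48 h was below that of 6 h. Their choice by a high difference from mock favours this, and the share over all genes was not counted. Over all 93 higher genes the median log2 change between 6 and 48 h was 0.13 with Apob-Mm2 and -0.10 with mock, and over the 137 lower genes it was -0.48 with Apob-Mm2 and -0.01 with mock. Across all genes tested it was -0.01 with Apob-Mm2 and -0.00 with mock.

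TNRC6B, one of the proteins that silence messages bound by Argonaute, had a level of 460, 329, 414 and 404.5 with Apob-Mm2, against 278, 269, 276 and 258 with mock. All 4 Apob-Mm2 arrays lay above all mock arrays (0.56 ± 0.134, adjusted p = 0.0335), and its 4 other probe sets gave 0.21 to 0.45. The zinc finger gene PLAG1 read 35.1, 37.2, 48.05 and 49.8 with Apob-Mm2, against 24.0, 28.4, 31.1 and 29.1 with mock (0.59 ± 0.137, adjusted p = 0.028). KL, which encodes klotho, a co-receptor of a bone-derived fibroblast growth factor, was dim at 17.4 to 24.4, against 11.9 to 12.4 with mock (0.66 ± 0.168, adjusted p = 0.0481). The water channel gene AQP11 (0.57), CCDC71 (0.56), the glycan phosphatase gene PXYLP1 (0.55) and GTF2A1 (0.54), a subunit of general transcription factor IIA, made up the rest. CCDC71 differed by 1.09 at 6 h but by 0.09, 0.31 and 0.77 at 12, 24 and 48 h. AQP11 differed by 0.01 at 6 h and by 0.70 to 0.86 later. In both genes the groups overlapped. Among the 10, also picked by these differences, 8 had every Apob-Mm2 array above every mock array, as did 2.81% of all genes. Of the 28 named genes, 16 had more than 1 probe set, and in all 16 every probe set had the same sign. This counts any size of difference, such as -0.07 in ABCC5, and the share over all genes was not counted.

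Only some of these calls held without each time in turn. The 9 that passed in every leave-one-time-out fit were ABCC5, RDH10, XPO5, SGK3, SMC6, SMAD5, SWT1, ANAPC16 and QDPR, all on the lower side. No named higher gene passed without the arrays of 24 h, where 0 higher genes were called at all, at 1395 genes with an unadjusted p under 0.05.

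The next question was which of these differences set Apob-Mm2 apart from other transfected duplexes. Apob-Mm2 was therefore set against the other 6 siRNAs in HUH7, averaged, a contrast that uses no mock array but the same Apob-Mm2 arrays. Here 762 genes (4.27%) differed, 430 lower (2.41%) and 332 higher (1.86%). The mean of 6 siRNAs rests on more arrays than mock, so SEs were smaller, as in ABCC5 (0.0782, against 0.102 versus mock). It also takes in changes made by the other siRNAs, so this count and that against mock are not on equal terms. A fit without all arrays of 24 h called 59 genes, 58 of them among the 762, and one without 48 h called 171, 159 of them among the 762. Of the 18 named lower genes 16 passed this test, and the 5 most negative were ABCC5 (-1.93 ± 0.0782), XPO5 (-1.29 ± 0.112), COL5A2 (-1.25 ± 0.130), RDH10 (-1.17 ± 0.129) and SMC6 (-0.92 ± 0.0762). In XPO5, COL5A2 and SMC6 each of the other 6 siRNAs averaged within -0.08 and 0.08 of mock. Apob-Mm2 gave the lowest of the 8 HUH7 arrays at every time in 49 of the 137 lower genes and in 83 of all genes (0.465%), and the highest at every time in 9 of the 93 higher genes and in 54 of all genes (0.303%). The 137 and the 93 were called from these same Apob-Mm2 arrays against mock, which is among the 8, and this favours such ranks.

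Other lower genes were shared with particular siRNAs, each set against the same mock arrays. SGK3 differed from mock by -1.16 with Apob-Mm2, -1.01 with APOB-Hs1 (adjusted p = 4.38e-06) and -0.72 with the RAD18 siRNA (0.00139), and by -0.18 to 0.06 with the other 4. SPP1 differed by -1.08 with APOB-Hs2 (adjusted p = 0.0088). AMMECR1 differed by -0.69 with APOB-Hs3 and BMPR2 by -0.59 with the same siRNA (adjusted p = 0.0089 and 0.0291). ABCC5 was also lower with APOB-Hs3 (-0.39, adjusted p = 0.0366) and SMAD5 with APOB-Hs2 (-0.29, adjusted p = 0.038). KLF2 stood below mock with all 7, at -0.88 to -0.36 with the other 6, and Apob-Mm2 minus their mean was -0.01 (95% interval -0.29 to 0.27). VNN3P, at -0.36 against the other siRNAs (adjusted p = 0.0624, interval -0.59 to -0.13), was the other named lower gene that did not pass.

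On the higher side 4 of the 10 named genes passed against the other siRNAs: TNRC6B (0.77 ± 0.103, adjusted p = 3.05e-05), PAPPA (0.62), PLAG1 (0.55) and PGM2L1 (0.44). PGM2L1 was not particular to Apob-Mm2. It also passed against mock with APOB-Hs2 (0.59, adjusted p = 0.042), APOB-Hs3 (0.58, 0.0498) and APOB-Hs4 (0.74, 0.0147), beside 0.89 with Apob-Mm2. TNRC6B was on opposite sides of mock with different duplexes, at 0.56 with Apob-Mm2, 0.25 with Apob-Mm1 and 0.23 with the RAD18 siRNA but -0.69 with APOB-Hs3 (adjusted p = 0.00417), of which Apob-Mm1 and the RAD18 siRNA did not pass. GTF2A1 did not differ past the threshold, at 0.00 with a 95% interval of -0.15 to 0.16, and stood above mock by 0.25 to 0.74 with the other 6. AKR1D1 stood above mock by 0.37 to 0.56 with the other 6, and its difference from them was 0.19 (interval -0.05 to 0.43).

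The 5 genes most above the other siRNAs were CNN1, APOB, CXCR4, TNRC6B and GBP1. CNN1, the actin-binding protein calponin of smooth muscle, read 65.2, 92.2, 163 and 296 with Apob-Mm2, against 61.9, 75.1, 66.7 and 39.3 with mock, and exceeded the other siRNAs by 0.96 (adjusted p = 0.0171). CXCR4, the receptor of the chemokine CXCL12, read 110, 168.5, 190 and 169 with Apob-Mm2, against 145, 167, 149.5 and 56.1 with mock, and exceeded the other siRNAs by 0.78 (adjusted p = 0.0316). The interferon-induced GTPase gene GBP1 exceeded them by 0.75 (adjusted p = 0.0205). None of these 3 passed against mock, where adjusted p-values were 0.0601, 0.582 and 0.33. APOB exceeded the other siRNAs by 0.82 (adjusted p = 0.0167), of which the 4 named APOB-Hs gave differences of -2.51 to -1.69 from mock. Apob-Mm1 gave -1.27 (adjusted p = 0.191) and the RAD18 siRNA 0.01 (0.994), where Apob-Mm2 gave -0.81.

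**Figure D4:**
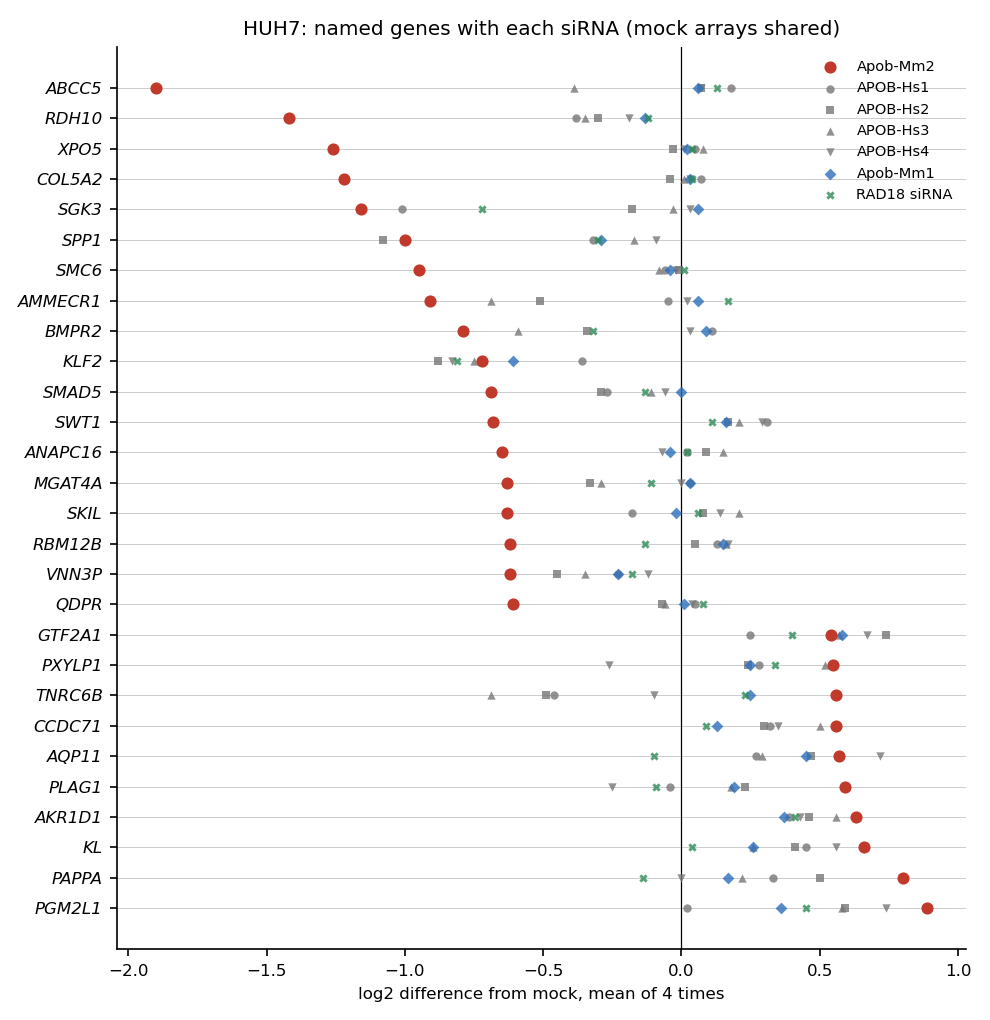
Log2 difference from mock averaged over 4 times for the 28 named genes, with Apob-Mm2 in red and each of the other 6 siRNAs in grey, blue or green. The same mock arrays enter every point. In XPO5, COL5A2 and SMC6 the red point stands alone, in ABCC5 it lies at -1.90 with APOB-Hs3 next at -0.39, while in KLF2 and GTF2A1 it lies among the others.

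The course of the response over time was examined next. The difference at 24 and 48 h minus that at 6 and 12 h was past the test in 0 genes (0.00%), with 1616 at an unadjusted p under 0.05. It was past the test in 63 genes without the arrays of 12 h and in 55 without those of 24 h. The 3 lowest p-values belonged to NUDT17, a nudix hydrolase gene (0.77 ± 0.125, adjusted p = 0.135), SPP1 (-1.42 ± 0.251, 0.15) and the guidance factor gene SEMA3C (1.14 ± 0.214, 0.15). NUDT17 read 50.5, 59.2, 76.3 and 78.9 with Apob-Mm2, against 67.6, 72.8, 59.0 and 58.1 with mock, below mock at the early times and above it at the late ones. SEMA3C read 74.3, 77.6, 92.7 and 110 with Apob-Mm2, against 67.5, 76.9, 52.2 and 36.0 with mock. A slope on the log2 of time in place of the early and late pairs called 369 genes (2.07%), 147 with a falling and 222 with a rising difference. It passed in 9 of the 18 named lower genes, with SPP1 at -0.67, RDH10 at -0.54 and COL5A2 at -0.51 log2 units per doubling of time, and in 2 of the 10 higher ones, PGM2L1 (0.47) and PAPPA (0.49). For ABCC5 (-0.17) and SWT1 (0.06), both low at 6 h, it did not pass.

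In each of 14 gene lists 0 to 3 members were lower and 0 or 1 higher against mock. No list's median difference lay further from 0 than 0.08. In the small RNA machinery, 14 measured genes from DROSHA and DICER1 to the Argonautes, XPO5 fell and TNRC6B rose. The Argonaute genes AGO1 to AGO4 differed by 0.07 to 0.15 and DICER1 by 0.02, none past the test, and the list's median was 0.05. Of 25 nuclear export and import receptors 3 fell and 0 rose, where 0.768% of all genes fell and 0.521% rose. Beside XPO5 these were the import adaptor gene KPNA6, with 567, 427, 347 and 336.5 with Apob-Mm2, against 544.5, 570.5, 566 and 595.5 with mock (-0.47 ± 0.102, adjusted p = 0.0163), and the transportin gene TNPO1 (-0.37 ± 0.087, adjusted p = 0.0291). The other 2 probe sets of TNPO1 gave -0.36 and -0.02, and their average with the first did not pass (-0.25, adjusted p = 0.0551). KPNA6 and TNPO1 were level with mock at 6 h, at 0.06 and 0.04, where their groups overlapped, and both were lower than with the other siRNAs (-0.57 and -0.41). Of 33 ABC transporters ABCC5 fell and ABCA5, a lysosomal lipid transporter gene, rose (0.40, adjusted p = 0.0192). ABCA5 had 2 probe sets, the other gave -0.01, and their average did not pass (0.19, adjusted p = 0.309). Of 28 genes of retinoid metabolism and its receptors RDH10 alone passed.

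In the lipid and liver lists 1 gene passed the test, where 0.768% of all genes were lower and 0.521% higher. Of 25 genes of lipoproteins and their assembly and uptake, 0 passed, with a median of 0.03. APOB had the lowest difference among them, at -0.81 (adjusted p = 0.14), with the levels given above. The microsomal transfer protein gene MTTP, which loads lipid onto apolipoprotein B, differed by 0.22 (adjusted p = 0.0913) and the LDL receptor ligase gene MYLIP by 0.21 (0.132). No gene passed among 23 of cholesterol synthesis (lowest p in NSDHL, -0.14, and FDPS, -0.13), 20 of fatty acid and triglyceride synthesis (ELOVL6, -0.25, and DGAT1, 0.19) and 18 of fatty acid oxidation (PLIN2, -0.22, and ACADL, 0.24). None of 33 plasma protein genes passed, and their differences lay between -0.13 and 0.21. Of 17 liver-enriched transcription factors NR0B2, a repressor of bile acid synthesis, fell by 0.42 (adjusted p = 0.0492), with 116, 121, 110.5 and 112 with Apob-Mm2, against 130, 136, 188 and 167 with mock. Against the other siRNAs NR0B2 stood at -0.16 (interval -0.33 to 0.01).

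In each of the stress and growth lists 0 or 1 member passed against mock. Over all genes 0.768% were lower and 0.521% higher, so 1 member of a list of this size exceeds that share. Of 26 genes of the unfolded protein and integrated stress response 1 rose, the eIF2alpha kinase gene EIF2AK3 (0.27 ± 0.0633, adjusted p = 0.0251). Of 23 p53 targets 1 rose, the antiproliferative gene BTG2, at 279, 308.5, 290 and 236 with Apob-Mm2, against 226, 223, 183 and 146 with mock (0.53 ± 0.097, adjusted p = 0.0041). BTG2 stood above mock by 0.15 to 0.57 with the other 6 siRNAs and did not differ from them past the threshold (0.18, interval 0.03 to 0.34, adjusted p = 0.18). None of 33 interferon response and RNA sensor genes passed, with IRF1 at 0.23 (adjusted p = 0.143) and MX2 at -0.19 (0.144). None of 33 cell cycle genes passed against mock, where their median was -0.08 and the replication licensing gene CDT1 stood at -0.18 (adjusted p = 0.294). Against the other siRNAs 5 of these 33 were lower: E2F3 (-0.36), CDT1 (-0.23), CDC25A (-0.19), MCM6 (-0.18) and PCNA (-0.14), where 2.41% of all genes were lower and 1.86% higher. In each of the other 13 lists 0 to 3 members were lower and 0 or 1 higher in that contrast. Against mock these 5 differed by -0.23 to 0.06.

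The same siRNA in PLC/PRF/5, with its own mock, gave a reading of the HUH7 genes on arrays that took no part in choosing them. In that line 24 genes (0.135%) changed, 23 lower (0.129%) and 1 higher (0.00561%). The count was 49 without the arrays of 6 h, 1 without 12 h, 10 without 48 h and 51 without the widely spread APOB-Hs2 and APOB-Hs4 arrays of 48 h. Of the 137 genes lower in HUH7, 125 (91.2%) had a negative difference in PLC/PRF/5, as 47.2% of all genes did, and 20 (14.6%) were called lower there. Their median difference was -0.38, and by time it was -0.13 at 6 h, -0.36 at 12 h and -0.51 at 48 h. In PLC/PRF/5 the medians of the same 137 genes with the other 6 siRNAs lay between -0.05 and 0.04, against the mock arrays of that line. Of the 93 genes higher in HUH7, 83 (89.2%) had a positive difference in PLC/PRF/5, as 52.8% of all genes did, with a median of 0.19 (0.04 at 6 h, 0.13 at 12 h and 0.46 at 48 h), and 1 passed the test. With the other siRNAs these 93 had medians of 0.01 to 0.12, and 56.99% to 75.3% of them were positive.

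**Figure D5:**
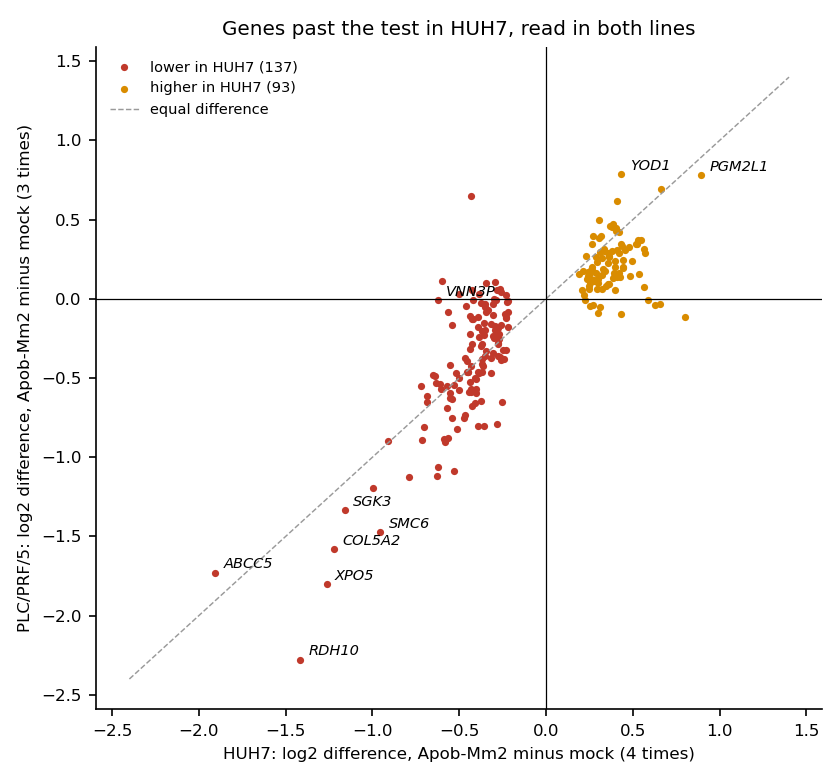
Log2 difference, Apob-Mm2 minus mock, of the 230 genes past the test in HUH7: the x axis gives HUH7 (mean of 4 times) and the y axis PLC/PRF/5 (mean of 3 times), with a dashed line where both are equal. Of the 137 lower genes 125 lie below 0 on the y axis, down to -2.28 (RDH10), and of the 93 higher genes 83 lie above 0.

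All 18 named lower genes had a negative mean difference in PLC/PRF/5 and 9 passed. RDH10 read 316, 120 and 76.0 at 6, 12 and 48 h with Apob-Mm2, against 716, 725.5 and 633 with mock, a level of 12.0% at 48 h (-2.28 ± 0.232, adjusted p = 5.75e-05). XPO5 read 204, 110 and 75.5 with Apob-Mm2, against 382, 441 and 426 with mock (-1.80 ± 0.205, adjusted p = 0.000152). ABCC5 read 65.5, 85.4 and 69.8 with Apob-Mm2, against 254.5, 252 and 221 with mock, and was again at its low level at 6 h (-1.73 ± 0.099, adjusted p = 5.34e-09). COL5A2 (-1.58), SMC6 (-1.48), SGK3 (-1.34), SKIL (-1.12), RBM12B (-1.06) and SMAD5 (-0.65) also passed. SPP1 read 2531, 1895 and 307 with Apob-Mm2, against 2530, 2832 and 2449 with mock. Its fall lay almost wholly in the 48 h array and did not pass (-1.19, adjusted p = 0.558). VNN3P, dim in that line, was level with mock at -0.01, and stood at 112%, 102% and 86.7% of mock at 6, 12 and 48 h. APOB stood at 73.0%, 27.4% and 11.3% of mock at 6, 12 and 48 h and did not pass (-1.82, adjusted p = 0.1).

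Of the 23 genes lower in PLC/PRF/5, all 23 had a negative difference in HUH7 and 20 (87.0%) were called lower there. Over all genes, 51.5% were negative in HUH7 and 0.768% were called lower. The HUH7 medians of the 23 were -0.14, -0.58, -0.80 and -0.77 at 6, 12, 24 and 48 h. They included G3BP1, a core protein of stress granules, with 2601, 1813, 1275 and 1079 in HUH7 with Apob-Mm2, against 2584, 2707, 2615 and 2567 with mock (-0.71 in HUH7, -0.89 in PLC/PRF/5). MAPK6, an atypical MAP kinase gene, had differences of -0.57 and -0.88 in HUH7 and PLC/PRF/5, PTK2, the focal adhesion kinase gene, -0.54 and -0.75, and LRRC8A, a subunit of the volume-regulated anion channel, -0.55 and -0.63. The 3 that did not pass in HUH7 were the cohesin gene RAD21 (-0.21), CEP135 (-0.30) and KCNK1 (-0.13). The 1 higher gene was the deubiquitinase gene YOD1, at 1067, 1071, 1208 and 1254 in HUH7 with Apob-Mm2, against 880, 861, 817 and 841 with mock (0.43 in HUH7, 0.79 in PLC/PRF/5).

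Of the 10 named higher genes 6 had a positive mean difference in PLC/PRF/5 and 0 passed. PGM2L1 read 88.3, 138.5 and 179 with Apob-Mm2, against 79.2, 102 and 53.04 with mock at 6, 12 and 48 h (0.78, adjusted p = 0.403). Its Apob-Mm2 level was highest at 48 h there, and its mock level at 12 h. PAPPA, KL, AKR1D1 and PLAG1 read under 10 there in nearly every array, and differed by -0.12 to -0.01.

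The difference between the lines was itself tested over the 3 times both have. It passed in 1 gene (0.00561%), the potassium channel gene KCNK1, with 713 genes at an unadjusted p under 0.05. KCNK1 read 6.74 to 7.52 with Apob-Mm2 in HUH7, against 7.01 to 9.09 with mock, near the lowest values of the array, while in PLC/PRF/5 it read 32.6, 30.5 and 22.3 with Apob-Mm2, against 74.8, 72.4 and 50.5 with mock. The lines differed by 1.15 ± 0.185 (adjusted p = 0.0084). For RDH10 the HUH7 minus PLC/PRF/5 difference was 0.97, for XPO5 0.68, for SMC6 0.59 and for ABCC5 -0.05, none past the test (adjusted p = 1.00 each).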

How the data were processed

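The deposited values were one-colour intensities, 1 for each probe set, made by RMA per the submitters' processing notes (no version was given). They are on a linear scale, and log2 was taken here. Of 43483 probe sets, 25919 carried 1 gene symbol and 17564 none. The brightest probe set over the human arrays stood for each gene, which left 17836 genes. No detection calls were used. Groups came from the labels, and no column was of another series.

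Limma 3.58.1 in R 4.3.3 fitted treatment and time as factors over the 32 HUH7 or 24 PLC/PRF/5 arrays, with empirical Bayes and Benjamini-Hochberg adjustment within each of 5 contrasts. Time pairs the siRNA and mock arrays, since both were collected at the same hour. The labels do not say whether arrays come from separate cultures, so p-values measure only the spread between these arrays, and their number limits the precision. The fits were tested on simulated data.

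Named genes were APOB, RAD18, the 18 most negative and 10 most positive differences from mock in HUH7 past the test whose sign held at every time, 5 and 5 against the other siRNAs, 5 and 2 in PLC/PRF/5, up to 4 and 4 between the lines, the 3 lowest p-values of late minus early, and list members past the test or else the 2 with the lowest p. G3BP1, MAPK6, PTK2, LRRC8A, RAD21, CEP135, the 5 cell cycle genes of the last list, the Argonaute genes and DICER1 were named after their values were seen. The members and lists were chosen with earlier results of these data known. Alternatives were averaged probe sets, quantile normalization, brighter genes only, a trended robust prior, no time factor, another siRNA in place of mock, a slope over time, fewer arrays and each time or array left out. Mouse arrays were not analysed here.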

Additional observations from a re-analysis of the deposited data

Results flagged for a closer look

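In each of the 57 named genes the 4 time-matched differences were examined for a time standing apart by Dixon's test, which chance flags in about 1 in 20 sets of 4. Klotho (KL) was flagged at 48 h, where its difference from mock was 1.04, while the other 3 times lay between 0.50 and 0.56. MTTP was flagged at 12 h with 0.12, while the other 3 lay between 0.24 and 0.26. KCNK1 was flagged because its response differed between HUH7 and PLC/PRF/5 by 1.15 in the test of that difference, with HUH7 readings near the lowest values of the array.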

How the results depend on the processing

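Times stand in for replicates, so a count moves with each of them. Apob-Mm2 against mock in HUH7 called 230 genes, and 382 among brighter genes only, 2 on the 8 arrays alone, 793 with the RAD18 siRNA and 89 with Apob-Mm1 in place of mock. Leaving out a time or an array gave 14 to 439. Time pairs the arrays, and without this block (no replicate block) the count was 37. Against the other siRNAs the count was 762, with 1154 among brighter genes and 59 to 894 when leaving out. Late minus early gave 0, 28 among brighter genes, 41 with a trended robust prior, 369 as a slope and 0 to 63 when leaving out. PLC/PRF/5 gave 24, 42 among brighter genes, 3 on its 6 arrays, 51 without both widely spread arrays and 1 to 49 when leaving out. The difference between lines gave 1, 0 among brighter genes and 0 or 1 when leaving out. Against the RAD18 siRNA the signs of KLF2 (0.09), NR0B2 (0.16) and RAD18 (1.97, its target) turned, and GTF2A1 was at -0.04 against Apob-Mm1. Among the 28 named genes, ABCC5 and SWT1 passed under every setting run on single genes, and quantile normalization changed none of the 28 calls. Other causes of these moves were not tested.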

Other observations

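A list of 27 genes of BMP and TGF-beta signalling (receptors, SMADs, their repressors and ligases, and ID genes) was written after the values had been seen, so it has no test. With Apob-Mm2 in HUH7, 4 of them were lower past the test over all genes (BMPR2, SMAD5, SKIL and ID3), 1 was higher (SMURF2, 0.36, adjusted p = 0.0179), and the median was -0.03, where 0.768% of all genes were lower and 0.521% higher. ID3, a target gene of BMP signals that blocks basic helix-loop-helix factors, read 2664, 2531, 2962 and 2918 with Apob-Mm2, against 3214, 3274, 3961 and 3968 with mock (-0.38, adjusted p = 0.00867). The ubiquitin ligase gene SMURF2, which marks SMADs and receptors for destruction, read 367, 309, 285 and 304.5 with Apob-Mm2, against 273, 282, 224 and 213 with mock.

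The steepest rises over time, also picked after their values were seen, rest largely on the Apob-Mm2 array of 48 h. NPPB, the gene of B-type natriuretic peptide, read 275, 306.5, 383 and 903 with Apob-Mm2, against 360, 290, 211 and 125.5 with mock, and the other 6 siRNAs read 88.6 to 237 at 48 h (slope 1.05 per doubling of time). The skeletal muscle actin gene ACTA1 read 41.8, 52.9, 64.3 and 243 with Apob-Mm2, against 63.8, 49.5, 49.3 and 41.0 with mock, with 38.4 to 46.3 for the other siRNAs at 48 h. CNN1, at 296 with Apob-Mm2 at 48 h, read 28.3 to 68.1 with the other siRNAs. For the protease gene PCSK7 the Apob-Mm2 array of 48 h read 1152, the mock array 246.5 and the other siRNAs 147 to 245, while at 6, 12 and 24 h it read 718, 866 and 944 with Apob-Mm2, against 795.5, 973 and 772 with mock. At 6 h SPEN, a transcriptional repressor gene, read 399 with Apob-Mm2, against 117 with mock, and from 12 h on it read 77.2 to 120.5 with Apob-Mm2 and 106 to 131.5 with mock. The 6 h value of SPEN is from a single array, and the other siRNAs at 6 h are not given here.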
